A study of Mus musculus with 9 samples.

Results

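Mitochondrial fatty acid oxidation was followed through 10 genes named by symbol: the carnitine palmitoyltransferases Cpt1a and Cpt2, the acyl-CoA dehydrogenases Acadvl, Acadl, Acadm and Acads, the trifunctional protein subunits Hadha and Hadhb, and the electron transfer flavoprotein subunits Etfa and Etfb. All 16 probe sets annotated to these symbols were taken, out of 45037 probe sets that are not controls, and the brightest probe set on average stood for each gene, leaving 10 of 18193 genes. The cells were Neuro2a, a mouse neuroblastoma line, studied as bulk cultures 48 h after siMyT1, an siRNA against the zinc finger transcription factor Myt1, after siLSD1, an siRNA against the histone demethylase LSD1 (gene Kdm1a), or after siControl, a control siRNA, with 3 arrays per group and 9 in all. Every group is the same line at the same time after siRNA, and no untreated cells are among the groups. The 10 genes were picked with differences in these arrays already known, so the differences and adjusted p-values given for them describe the arrays and are no independent test.

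Fatty acids enter the mitochondrial matrix as carnitine esters, made by a CPT1 enzyme on the outer membrane and turned back to acyl-CoA by CPT2 on the inner membrane. Each turn of beta-oxidation starts with an acyl-CoA dehydrogenase chosen by chain length, passes through hydration, a second dehydrogenation and thiolysis, which the trifunctional protein carries out on long chains, and shortens the chain by an acetyl-CoA. Electrons taken by the acyl-CoA dehydrogenases pass to the soluble flavoprotein ETF, a dimer of the Etfa and Etfb products, and from it to ubiquinone through Etfdh. Neurons and neuroblastoma cells are usually described as glucose users with a lower capacity for this pathway than heart or liver.

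Of the measured neuroblastoma markers, 8 of 9 were brighter than the median probe set (Nefl was not), against 0 of 4 hepatocyte and 0 of 3 adipocyte markers, 2 of 5 for striated muscle, 2 of 6 for fibroblasts and 1 of 4 for macrophages. Each siRNA lowered its target: Myt1 lay between 0.474 and 0.882 intensity units in siMyT1, against 4.60 to 5.27 in siControl, and Kdm1a lay between 4.05 and 4.80 in siLSD1, against 28.1 to 30.1 in siControl. In siLSD1, Myt1 lay between 6.16 and 7.59 units, above all siControl arrays. That difference did not pass the threshold used below (limma adjusted p = 0.0643). In siMyT1, Kdm1a lay between 29.9 and 32.8 units and overlapped with siControl. Intensities are the deposited linear values, whose scale the labels do not state. Array medians were 0.305 to 0.424 units in siMyT1, 0.302 to 0.321 in siLSD1 and 0.306 to 0.366 in siControl. The ratio of the 3' to the 5' actin control probe sets, a measure of RNA integrity, was 1.11 to 1.12 in siMyT1, 1.12 to 1.23 in siLSD1 and 1.15 to 1.19 in siControl. The same ratio for Gapdh was 0.787 to 0.801 in siMyT1, 0.786 to 0.817 in siLSD1 and 0.775 to 0.792 in siControl. In bulk samples, fewer cells of a type and less RNA per cell cannot be told apart.

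Across the pathway, the dehydrogenases of long and medium chains and the flavoprotein that serves them differed between groups, while the carnitine transferases, the short-chain enzyme and the trifunctional protein passed the threshold in none of the comparisons of the main fit. Differences below are log2 differences of means of log2(intensity + pseudocount), with a pseudocount of 0.196 units, which understates the changes of dim genes. Passing the threshold means an adjusted p under 0.05 in limma with Benjamini-Hochberg adjustment over all 18193 genes, and levels are given as mean ± SD with n = 3 arrays. In siMyT1 against siControl, 3 of the 10 genes passed, all of them higher (Acadl, Acadm and Etfa), beside 5.12% of all genes higher and 2.29% lower (7.41% in either direction). Knockdown of LSD1 gave 1 of the 10 past the threshold against siControl, lower (Acadl), beside 4.93% of all genes lower and 3.97% higher (8.90% in either direction). In siMyT1 against siLSD1, 4 of the 10 were higher (Acadl, Acadm, Etfa and Etfb), beside 13.2% of all genes, and 1 was lower (Acadvl), beside 5.58% (18.8% in either direction). Arrays of the 2 groups did not overlap for 3 of the 10 genes, higher, in siMyT1 against siControl, beside 16.5% of all genes higher and 7.55% lower, and for 3, lower, in siLSD1 against siControl, beside 16.1% lower and 10.7% higher. Between the knockdowns this held for 5, higher in siMyT1, beside 23.3% higher and 9.70% lower. The median difference of the 10 genes was 0.12, -0.092 and 0.25 in these comparisons, beside 0.050, -0.034 and 0.086 for all genes. All 10 enzymes were brighter than the median probe set, while the shares of all genes include dim ones. In a fit with dim genes left out, 1347 of 11120 genes were called higher and 597 lower in siMyT1 against siControl. The numbers were 960 and 1278 in siLSD1 against siControl, and 2860 and 1217 in siMyT1 against siLSD1.

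**Figure D1:**
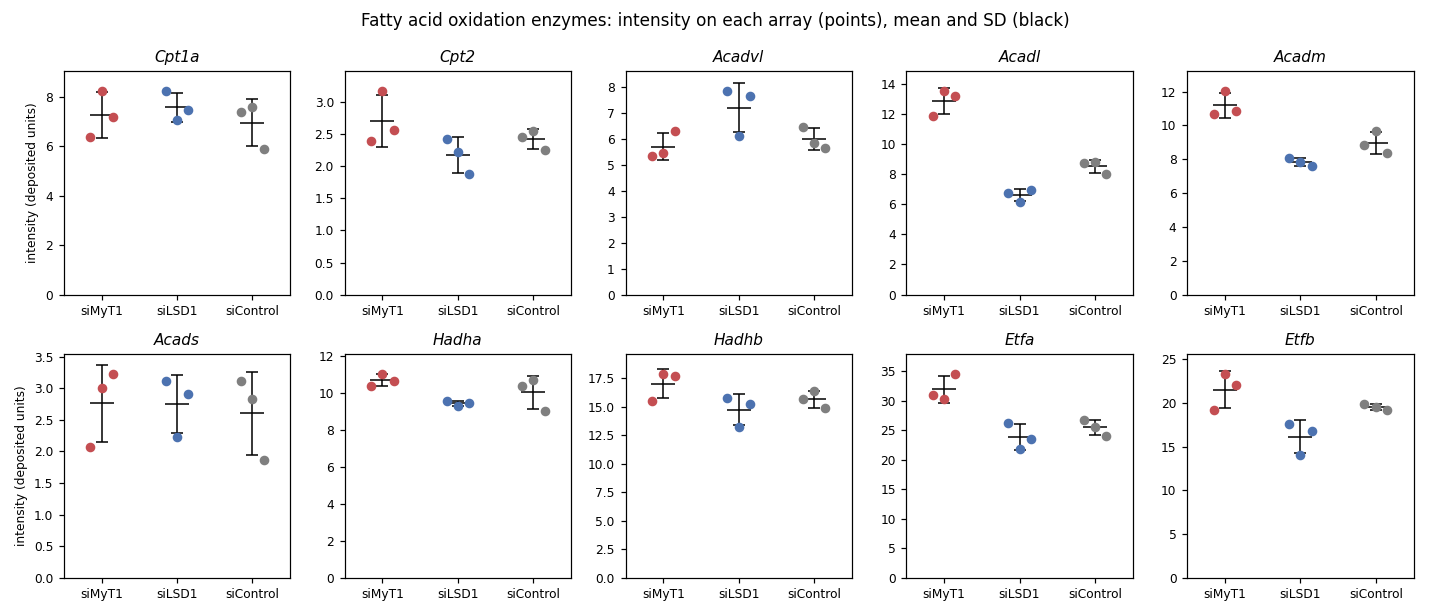
Intensity in deposited units on each array (points) for the 10 fatty acid oxidation enzymes in siMyT1, siLSD1 and siControl, with the mean and SD of 3 arrays in black and each vertical axis starting at 0. Acadl and Acadm show 3 separate groups, siMyT1 above siControl above siLSD1, while the groups of Cpt1a, Cpt2 and Acads overlap.

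Acadl, the long-chain acyl-CoA dehydrogenase, had the log2 difference largest in size among the 10 genes in every comparison. It measured 11.9, 13.5 and 13.2 units in siMyT1, 6.72, 6.14 and 6.97 in siLSD1, and 8.73, 8.81 and 8.01 in siControl. No arrays of different groups overlapped, and the order was siMyT1 above siControl above siLSD1, an order without overlap that 2 of the 10 genes (Acadl and Acadm) and 2.62% of all genes showed. The siMyT1 mean of 12.9 ± 0.88 was 151% of the siControl mean of 8.51 ± 0.44 (log2 difference 0.58, SE 0.07, limma adjusted p = 0.000468). The siLSD1 mean of 6.61 ± 0.43 was 77.7% of the siControl mean (log2 difference -0.36, SE 0.07, limma adjusted p = 0.0083). Compared directly, siMyT1 was 195% of siLSD1 (log2 difference 0.94, SE 0.07, limma adjusted p = 3.81e-06). Both comparisons with siControl use the same control arrays. The second Acadl probe set was brighter than only 9.55% of all probe sets and lay below the pseudocount, so it carried no usable level, and averaging it with the first ended the calls of Acadl against siControl (log2 difference 0.30 in siMyT1, adjusted p = 0.166, and -0.22 in siLSD1, adjusted p = 0.323).

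Acadm, the medium-chain acyl-CoA dehydrogenase, whose loss causes the commonest inherited defect of the pathway in people, followed the same order with smaller steps. It measured 10.7, 12.0 and 10.9 units in siMyT1, 8.06, 7.86 and 7.62 in siLSD1, and 8.81, 9.69 and 8.37 in siControl. The groups were again separate, with the lowest siControl array close above the highest siLSD1 array. The siMyT1 mean of 11.2 ± 0.73 exceeded the siControl mean of 8.96 ± 0.67 (log2 difference 0.32, SE 0.07, limma adjusted p = 0.0186) and the siLSD1 mean of 7.85 ± 0.22 (log2 difference 0.50, SE 0.07, limma adjusted p = 0.000343). The difference between siLSD1 and siControl did not pass (log2 difference -0.18, 95% interval -0.34 to -0.030, limma adjusted p = 0.146), but did with array weights (-0.19, limma adjusted p = 0.041). The call of siMyT1 against siControl was lost without siMyT1 replicate 2 (log2 difference 0.26, adjusted p = 0.0834), siControl replicate 1 (0.31, adjusted p = 0.0734) or siControl replicate 3 (0.27, adjusted p = 0.0796), and without an intensity trend (adjusted p = 0.0772).

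Acadvl, the very-long-chain acyl-CoA dehydrogenase of the inner membrane, ran the other way. It measured 5.33, 5.47 and 6.31 units in siMyT1, 7.85, 6.14 and 7.65 in siLSD1, and 6.46, 5.86 and 5.67 in siControl. Replicates 1 and 3 of siLSD1 lay above all other arrays, and replicate 2 of siLSD1 lay among those of siMyT1 and siControl. The siMyT1 mean of 5.70 ± 0.53 was lower than the siLSD1 mean of 7.21 ± 0.94 (log2 difference -0.32, SE 0.10, limma adjusted p = 0.038). Differences from siControl (5.998 ± 0.41) were -0.072 in siMyT1 (95% interval -0.29 to 0.14) and 0.25 in siLSD1 (95% interval 0.036 to 0.47, limma adjusted p = 0.158). The call between the knockdowns was lost when only those groups were fitted (adjusted p = 0.0542), without an intensity trend (adjusted p = 0.0969) and without siMyT1 replicate 1 or 2 or siLSD1 replicate 1 or 3 (adjusted p up to 0.144). It was also lost in a fit of all probe sets in place of genes (limma adjusted p = 0.0618). Without siLSD1 replicate 2 the difference of siLSD1 from siControl passed (log2 difference 0.36, adjusted p = 0.0305).

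Acads, the short-chain acyl-CoA dehydrogenase, had the widest intervals of the 10 genes, with levels of 2.76 ± 0.61 units in siMyT1, 2.75 ± 0.46 in siLSD1 and 2.604 ± 0.66 in siControl. The 95% intervals of its differences were -0.34 to 0.51 for siMyT1 and -0.33 to 0.51 for siLSD1 against siControl and -0.43 to 0.41 between the knockdowns. The differences of Acadm from siControl, 0.32 and -0.18, would lie inside the Acads intervals against siControl, so changes of that size were not excluded for Acads.

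Proximal promoters of some of the members that differed are shown to let their sequence be set beside their order across groups. They are RefSeq windows on GRCm38.p6 from 250 bases before to 50 bases after the annotated start of the gene, written 5' to 3' on the gene's strand, and all 10 genes had one. Capitals mark each match, on either strand, to the GC box GGGCGG, the nuclear receptor half-site AGGTCA or the CCAAT box CCAAT, and no 2 matches overlap. Etfb, which also differed between the knockdowns, is described below but not shown. Acadl (chr1:66863260-66863559, minus strand) and Acadm (chr3:153944594-153944893, minus strand) are given as the pair that followed 1 order, Etfa (chr9:55512194-55512493, minus strand) as the other gene higher in siMyT1 than in siControl, and Acadvl (chr11:70015379-70015678, minus strand) as the gene that ran the other way.
Acadl: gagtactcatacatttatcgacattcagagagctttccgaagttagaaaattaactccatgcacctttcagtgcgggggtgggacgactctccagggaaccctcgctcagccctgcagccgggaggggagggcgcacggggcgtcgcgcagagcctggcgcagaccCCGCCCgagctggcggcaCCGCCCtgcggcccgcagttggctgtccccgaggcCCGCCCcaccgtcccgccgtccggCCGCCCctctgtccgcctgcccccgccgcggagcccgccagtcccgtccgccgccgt
Acadm: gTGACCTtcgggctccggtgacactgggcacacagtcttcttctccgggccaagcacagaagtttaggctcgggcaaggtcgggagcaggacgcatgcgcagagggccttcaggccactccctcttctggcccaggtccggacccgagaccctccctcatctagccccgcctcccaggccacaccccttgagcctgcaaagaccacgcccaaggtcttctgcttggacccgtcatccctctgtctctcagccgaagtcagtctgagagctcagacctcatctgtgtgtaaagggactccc
Etfa: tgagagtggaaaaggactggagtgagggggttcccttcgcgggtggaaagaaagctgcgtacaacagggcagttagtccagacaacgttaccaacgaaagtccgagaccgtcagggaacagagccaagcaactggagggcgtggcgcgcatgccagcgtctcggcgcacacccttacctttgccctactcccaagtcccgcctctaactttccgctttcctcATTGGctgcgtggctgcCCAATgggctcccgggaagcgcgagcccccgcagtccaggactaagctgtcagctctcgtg
Acadvl: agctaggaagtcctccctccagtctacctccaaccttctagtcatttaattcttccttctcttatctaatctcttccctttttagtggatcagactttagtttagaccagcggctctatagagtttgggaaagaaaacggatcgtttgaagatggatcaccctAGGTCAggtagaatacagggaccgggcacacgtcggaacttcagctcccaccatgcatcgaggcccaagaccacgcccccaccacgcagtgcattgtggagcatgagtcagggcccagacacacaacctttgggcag

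Over all 32851 windows the medians were 7 CpG and 52.7% GC. Each of the 10 windows exceeded that CpG count, and only that of Acadvl fell below that GC share. The Acadl window was the most CpG-rich of the 10, with 34 CpG and 70.3% GC, and held 4 GC boxes. The Acadm window had 13 CpG, 62.3% GC and 1 half-site at its distal end, and the Acadvl window had 9 CpG, 50.7% GC and 1 half-site. The Etfa window, with 21 CpG, had a pair of CCAAT boxes in opposite orientation close to its start. The Etfb window had 16 CpG, 55.3% GC, 2 CCAAT boxes and 1 GC box. Acadl and Acadm had none of the searched motifs in common. Acadm and Acadvl had the half-site in common, Etfa and Etfb the CCAAT box, and Acadl and Etfb the GC box. Whether any of these motifs bears on the order across groups was not tested. Over the 10 windows the GC box was found in 7, beside 35.7% of all 32851 windows, with 1 site in the shared stretch of the Hadha and Hadhb windows counted in both, the half-site in 3, beside 16.3%, and the CCAAT box in 3, beside 37.4%. The estrogen-related receptor motif TCAAGGTCA, which contains the half-site, the direct repeat of the half-site with 1 base between, recognised by PPAR with RXR, the palindromic NRF1 motif, the E-box CACGTG and the TATA box TATAAA had no match in the 10 windows and were present in 0.423%, 0.0396%, 0.971%, 7.15% and 13.6% of all windows. A match is a description of these letters and does not show that a factor binds there.

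Hadha and Hadhb, the alpha and beta subunits of the trifunctional protein, are divergent neighbours. Their annotated starts on chromosome 5 lie 273 bases apart on opposite strands, and their windows share 228 bases (chr5:30155003-30155230). The Hadhb window (chr5:30155003-30155302, plus strand) is shown because most of it is also the Hadha window read from the other strand.
Hadhb: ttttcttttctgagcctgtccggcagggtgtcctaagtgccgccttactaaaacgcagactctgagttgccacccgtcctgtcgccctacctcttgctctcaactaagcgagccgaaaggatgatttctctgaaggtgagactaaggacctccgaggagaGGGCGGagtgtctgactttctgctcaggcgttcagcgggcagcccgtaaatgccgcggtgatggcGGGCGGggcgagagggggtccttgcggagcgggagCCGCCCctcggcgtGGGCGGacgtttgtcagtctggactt

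Capitals again mark matches to the same motifs, here 4 GC boxes. Hadha measured 10.4, 11.01 and 10.7 units in siMyT1, 9.54, 9.28 and 9.48 in siLSD1, and 10.4, 10.7 and 9.02 in siControl. Hadhb, by its brightest probe set, measured 15.5, 17.8 and 17.7 units in siMyT1, 15.8, 13.3 and 15.2 in siLSD1, and 15.7, 16.4 and 14.9 in siControl. Both had the highest mean in siMyT1 and the lowest in siLSD1, and neither passed the threshold in any of the 3 comparisons as deposited. Hadhb passed between the knockdowns after quantile normalization (0.17, adjusted p = 0.0169), with dim genes left out (adjusted p = 0.0456) and without siMyT1 replicate 1 (0.27, adjusted p = 0.0357). The differences were close in size: 0.093 (95% interval -0.057 to 0.24) for Hadha and 0.12 (-0.053 to 0.28) for Hadhb in siMyT1 against siControl, and -0.083 (-0.23 to 0.067) and -0.089 (-0.26 to 0.080) in siLSD1 against siControl. Between the knockdowns they were 0.18 (limma adjusted p = 0.102) for Hadha, whose arrays did not overlap, and 0.20 (limma adjusted p = 0.0906) for Hadhb, whose arrays did. A second Hadhb probe set, brighter than 86.7% of all probe sets, measured 8.09 ± 0.88 units in siMyT1, 8.13 ± 1.2 in siLSD1 and 8.24 ± 0.51 in siControl. Its differences were -0.030, -0.028 and -0.0019 in the 3 comparisons, and the third Hadhb probe set was below the pseudocount. The small differences of the brightest Hadhb probe set were therefore not seen in its second one.

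The electron transfer flavoprotein carries electrons from every mitochondrial acyl-CoA dehydrogenase. Etfa, its alpha subunit, measured 31.0, 30.4 and 34.5 units in siMyT1, 26.3, 21.8 and 23.6 in siLSD1, and 26.8, 25.6 and 24.1 in siControl. All siMyT1 arrays lay above all others, and siLSD1 overlapped with siControl. The siMyT1 mean of 31.96 ± 2.2 exceeded the siControl mean of 25.5 ± 1.3 (log2 difference 0.32, SE 0.08, limma adjusted p = 0.0236) and the siLSD1 mean of 23.9 ± 2.3 (log2 difference 0.42, SE 0.08, limma adjusted p = 0.00206). The call against siControl was lost without siMyT1 replicate 3 or siControl replicate 2 or 3 (adjusted p up to 0.1003), without an intensity trend (adjusted p = 0.102) and after median centring of the arrays (0.28, adjusted p = 0.139), and that against siLSD1 after median centring (0.29, adjusted p = 0.073).

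Etfb, the beta subunit of the same dimer, differed between the knockdowns but not from siControl by the threshold. It measured 19.2, 23.2 and 22.1 units in siMyT1, 17.6, 14.0 and 16.8 in siLSD1, and 19.8, 19.6 and 19.2 in siControl. All siLSD1 arrays lay below all others, while 1 siMyT1 array fell to the level of the lowest siControl array. The siMyT1 mean of 21.5 ± 2.1 exceeded the siLSD1 mean of 16.1 ± 1.9 (log2 difference 0.41, SE 0.09, limma adjusted p = 0.00537). Against siControl (19.5 ± 0.35) the differences were 0.13 in siMyT1 (95% interval -0.058 to 0.32) and -0.28 in siLSD1 (95% interval -0.47 to -0.088, limma adjusted p = 0.071). The siLSD1 difference passed under several other settings, among them without siLSD1 replicate 1 (-0.35, adjusted p = 0.0442).

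The carnitine shuttle enzymes did not pass the threshold in any comparison of the main fit. Cpt1a, the form of the rate-setting, malonyl-CoA-sensitive transferase that predominates in liver and is widely expressed, measured 7.26 ± 0.94 units in siMyT1, 7.58 ± 0.59 in siLSD1 and 6.95 ± 0.94 in siControl. Its differences from siControl were 0.062 (95% interval -0.18 to 0.30) in siMyT1 and 0.13 (-0.11 to 0.36) in siLSD1. Cpt2 measured 2.71 ± 0.41 units in siMyT1, 2.18 ± 0.28 in siLSD1 and 2.42 ± 0.15 in siControl, with a difference of 0.29 between siMyT1 and siLSD1 (95% interval 0.014 to 0.56, limma adjusted p = 0.144). That Cpt2 difference passed with array weights (0.35, limma adjusted p = 0.0494). The other probe sets, 2 for Cpt1a with means of 0.813 and 0.267 units and 1 for Cpt2 with a mean of 0.343, did not pass in a fit of all probe sets, where 3.24%, 5.05% and 11.2% of probe sets passed in siMyT1 against siControl, siLSD1 against siControl and siMyT1 against siLSD1.

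**Figure D2:**
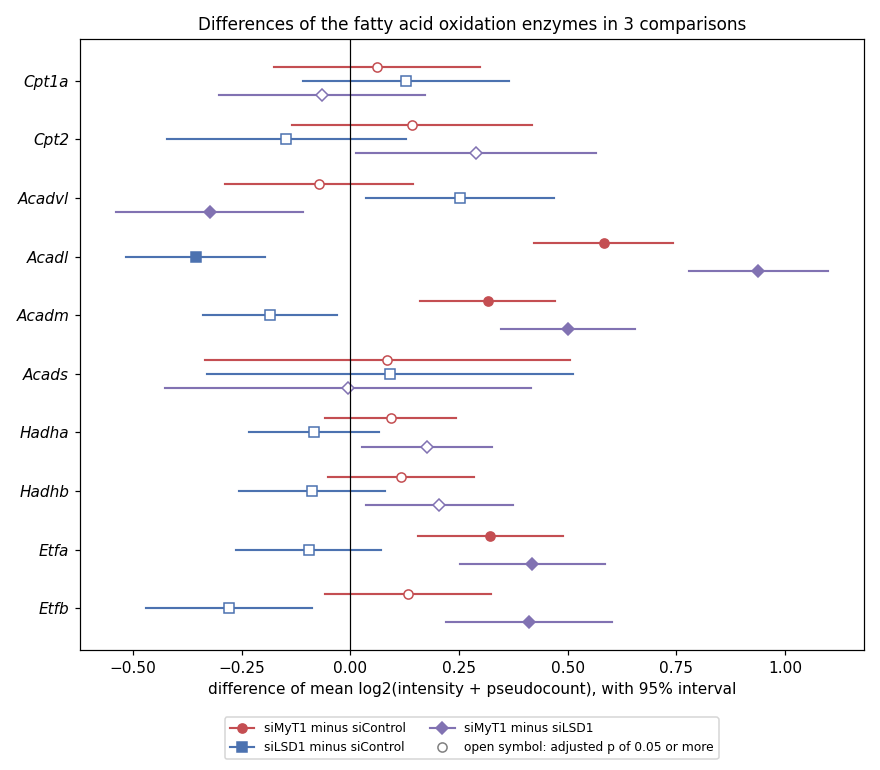
Log2 differences of the 10 enzymes in siMyT1 against siControl (circles), siLSD1 against siControl (squares) and siMyT1 against siLSD1 (diamonds), with 95% intervals from limma, filled where the adjusted p is under 0.05. Acadl stands at 0.58, -0.36 and 0.94, and Acadvl is the gene whose siMyT1 to siLSD1 difference is called below 0, at -0.32.

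The direct comparison depends in part on how arrays are brought to a common scale. Median centring moved the median of all genes in siMyT1 against siLSD1 from 0.086 by -0.13, so differences relative to all genes are given too. Relative to the median gene, Acadl stood at 0.85, Acadm at 0.41, Etfa at 0.33, Etfb at 0.33 and Acadvl at -0.41. After median centring Acadl (0.81), Acadm (0.37) and Etfb (0.28) remained called higher and Acadvl (-0.45) lower. As deposited, 2408 genes were called higher and 1015 lower in siMyT1 (70.3% higher). Quantile normalization left the higher calls near that number, at 2413, and raised the lower ones to 1923 (55.7% higher), and median centring gave 1223 higher and 1711 lower (41.7% higher). The shares of calls that were higher were, in the same order of scalings, for siMyT1 against siControl 69.1%, 55.6% and 56.3%, and for siLSD1 against siControl 44.6%, 50.7% and 66.5%.

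Genes of the same pathway outside the 10 were taken from a list of 18 chosen by role, 17 of them measured. All 17 were brighter than the median probe set. In siMyT1 against siControl 5 of the 17 passed, all higher, beside 5.12% of all genes higher, with a list median of 0.14 beside 0.050 for all genes. They were Hadh, Acaa2, Decr1, Hsd17b10 and Slc25a20, the last of which is outside the rule for named genes and was chosen after its value was seen. The siLSD1 comparison with siControl had 2 past the threshold, both lower (Slc22a5 and Acad11), beside 4.93% of all genes lower, with a median of -0.044 beside -0.034. In siMyT1 against siLSD1 10 passed, all higher, beside 13.2% of all genes, with a median of 0.30 beside 0.086. Quantile normalization gave 11 higher and 3 lower in that comparison, and median centring 6 higher and 3 lower, the genes lower being Cpt1c, Crat and Ech1 under both, named here outside the rule. For siLSD1 against siControl these scalings added Ech1 as higher, with 3 and 2 genes lower.

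Hadh, the short-chain hydroxyacyl-CoA dehydrogenase of the second oxidation step, measured 51.8, 52.1 and 58.4 units in siMyT1, 36.3, 32.003 and 33.7 in siLSD1, and 34.2, 34.4 and 33.8 in siControl. The siMyT1 arrays stood well above both other groups, which overlapped. It rose to 54.1 ± 3.8 in siMyT1, against 34.1 ± 0.32 in siControl (log2 difference 0.66, SE 0.07, limma adjusted p = 8.77e-05), and stayed called under all 17 alternatives tried. The difference in siLSD1 was -0.0067 (limma adjusted p = 0.979), and that between siMyT1 and siLSD1 was 0.67 (limma adjusted p = 2.33e-05).

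Acaa2, the mitochondrial thiolase that releases acetyl-CoA from medium chains, measured 3.66, 4.92 and 3.78 units in siMyT1, 2.54, 2.44 and 2.604 in siLSD1, and 2.72, 2.55 and 2.55 in siControl. Its siMyT1 arrays did not overlap with either group, and the rise over siControl was 0.61 (SE 0.11, limma adjusted p = 0.00559). Decr1, the dienoyl-CoA reductase needed for unsaturated fatty acids, measured 10.8 ± 0.95 units in siMyT1, 7.13 ± 0.40 in siLSD1 and 8.35 ± 0.18 in siControl. It was the 1 gene of the 17 with 3 separate groups in the order of Acadl and Acadm, and it rose in siMyT1 by 0.36 (SE 0.07, limma adjusted p = 0.0112). That call was lost without siMyT1 replicate 2 or siControl replicate 1 (adjusted p up to 0.0531), without an intensity trend (0.0566) and with all probe sets averaged (0.24, adjusted p = 0.182). Hsd17b10, a dehydrogenase of branched chains and a part of mitochondrial RNase P, measured 16.1 ± 0.34 units in siMyT1, 13.1 ± 0.56 in siLSD1 and 12.3 ± 0.47 in siControl (siMyT1 against siControl 0.38, SE 0.06, limma adjusted p = 0.0019). Slc25a20, the carnitine-acylcarnitine carrier between CPT1 and CPT2, measured 4.53 ± 0.29 units in siMyT1, 3.30 ± 0.45 in siLSD1 and 3.24 ± 0.11 in siControl (siMyT1 against siControl 0.46, SE 0.10, limma adjusted p = 0.0149).

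The genes of this list called lower in siLSD1 were a carnitine transporter and an acyl-CoA dehydrogenase. Slc22a5, the plasma membrane carnitine transporter, measured 5.45, 6.86 and 5.77 units in siMyT1, 3.83, 3.24 and 3.15 in siLSD1, and 5.76, 5.77 and 4.82 in siControl. All siLSD1 arrays lay below all others, and the difference from siControl was -0.65 (SE 0.11, limma adjusted p = 0.00179). Acad11, an acyl-CoA dehydrogenase family member active on very long chains, measured 2.41 ± 0.22 units in siMyT1, 1.47 ± 0.096 in siLSD1 and 2.21 ± 0.16 in siControl (siLSD1 against siControl -0.53, SE 0.12, limma adjusted p = 0.0115), a call lost without siControl replicate 1 (adjusted p = 0.0649). In siMyT1 the differences of both from siControl did not pass, at 0.14 (adjusted p = 0.538) and 0.11 (adjusted p = 0.671) in limma.

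**Figure D3:**
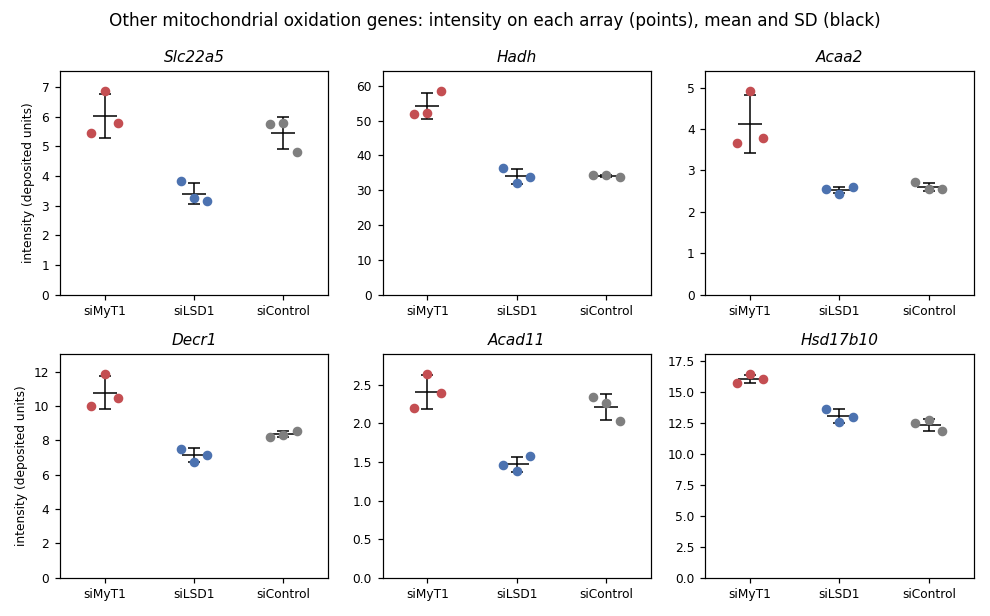
Intensity in deposited units on each array (points) for 6 pathway genes outside the 10, in siMyT1, siLSD1 and siControl, with the mean and SD of 3 arrays in black and vertical axes from 0. Hadh, Acaa2, Decr1 and Hsd17b10 are highest in siMyT1, and Slc22a5 and Acad11 are lowest in siLSD1.

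Dehydrogenases outside fatty acid oxidation that also give electrons to ETF, such as those of branched-chain amino acid and choline breakdown, were represented by 6 genes. In limma 0 of 6 passed in each comparison, with 1, 1 and 2 at an unadjusted p under 0.05 in siMyT1 against siControl, siLSD1 against siControl and siMyT1 against siLSD1. Ketone body enzymes were represented by 2 measured genes (Bdh1 and Oxct1 among the 4 listed), of which 0 passed in limma, with 0, 2 and 1 at an unadjusted p under 0.05. Markers of mitochondrial content, such as porins, import receptors and matrix chaperones, passed for 1 of 14 in siMyT1 against siControl, beside 7.41% of all genes, the import channel Timm23 (log2 difference 0.34, limma adjusted p = 0.0267), whose call was lost without siMyT1 replicate 2 or 3 or siControl replicate 1 or 3 (adjusted p up to 0.114), and for 0 of 14 in the other comparisons in limma, with 1 and 2 at an unadjusted p under 0.05. Their medians were 0.086, 0.0054 and 0.098, beside 0.050, -0.034 and 0.086 for all genes.

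Beta-oxidation in peroxisomes, which shortens very long and branched chains before they reach mitochondria, was represented by 16 measured genes of 18. In siMyT1 against siControl 5 of the 16 passed, all higher, beside 5.12% of all genes higher, with a median of 0.20 beside 0.050. Between siMyT1 and siLSD1 7 passed, all higher, beside 13.2% of all genes, with a median of 0.32 beside 0.086. In siLSD1 against siControl 0 passed in limma, with 2 at an unadjusted p under 0.05. Crot, which makes carnitine esters of shortened chains for export to mitochondria, measured 6.45, 7.25 and 6.98 units in siMyT1, 5.45, 5.03 and 5.10 in siLSD1, and 5.09, 4.92 and 4.66 in siControl (siMyT1 against siControl 0.48, SE 0.07, limma adjusted p = 0.00176). Hsd17b4, the multifunctional enzyme of hydration and dehydrogenation, rose in siMyT1 by 0.47 (adjusted p = 0.0231), Pecr, an enoyl-CoA reductase, by 0.42 (adjusted p = 0.033) and Ehhadh, the other multifunctional enzyme, by 0.74 (adjusted p = 0.0331), all in limma, with Ehhadh at 0.534 ± 0.14 units in siMyT1, against 0.238 ± 0.047 in siControl. The calls of Hsd17b4, Pecr and Ehhadh were each lost without siMyT1 replicate 2 or 3 or siControl replicate 1 or 3, and that of Ehhadh also without siControl replicate 2 (adjusted p up to 0.134).

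**Figure D4:**
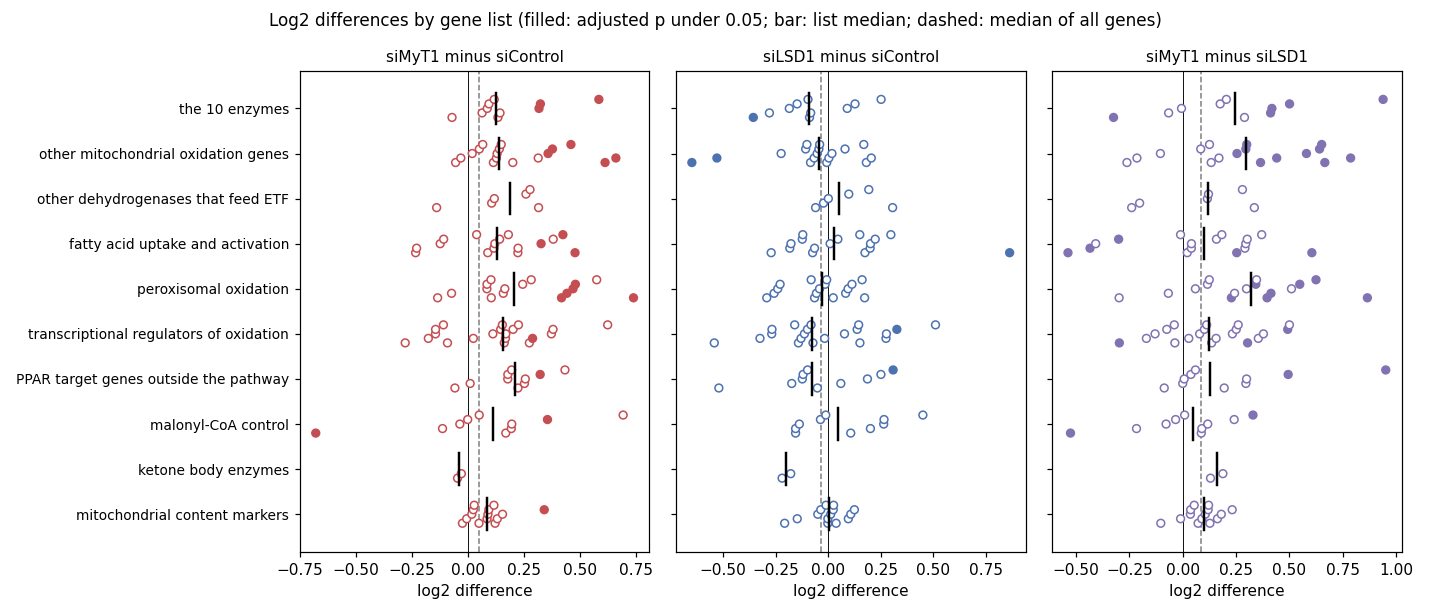
Log2 differences of each measured gene by list in siMyT1 against siControl, siLSD1 against siControl and siMyT1 against siLSD1, filled where the limma adjusted p is under 0.05, with black bars at the list medians and a dashed line at the median of all genes. Filled points of the mitochondrial and peroxisomal lists lie right of 0 in siMyT1 against siControl, and the mitochondrial content markers have 1 filled point, Timm23.

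Of 20 measured regulators of the pathway 1 passed in siMyT1 against siControl, 1 in siLSD1 against siControl and 3 in siMyT1 against siLSD1, beside 7.41%, 8.90% and 18.8% of all genes. Nrip1, a corepressor of oxidative genes, passed in both comparisons with siControl and was higher at 5.15 ± 0.36 units in siMyT1 and 5.29 ± 0.27 in siLSD1, against 4.18 ± 0.11 in siControl (log2 differences 0.29 and 0.33, limma adjusted p = 0.0406 and 0.0178). The siMyT1 call of Nrip1 was lost without any 1 of the siControl arrays or without siMyT1 replicate 2 or 3 (adjusted p up to 0.141), and that in siLSD1 without siLSD1 replicate 1 or siControl replicate 1 (adjusted p up to 0.082). Averaging all Nrip1 probe sets ended both calls (0.13, adjusted p = 0.618 in siMyT1, and 0.14, adjusted p = 0.593 in siLSD1), and median centring ended that in siMyT1 (0.24, adjusted p = 0.0912). Ppara and Ppargc1a, the receptor and coactivator best known for driving these genes in liver and muscle and named here for that role, were dimmer than the median probe set, at 0.270 ± 0.085 and 0.166 ± 0.065 units in siMyT1, 0.223 ± 0.082 and 0.0579 ± 0.022 in siLSD1, and 0.306 ± 0.077 and 0.0862 ± 0.067 in siControl. Most of the list went the other way, with 16 of the 20 brighter than the median probe set. Their relatives Ppard, Pparg and Ppargc1b, also named outside the rule, averaged 2.46, 2.02 and 4.65 units over all arrays. These relatives passed in none of the comparisons. In siMyT1 against siLSD1, Pprc1, a coactivator of the same family, was higher (0.30, adjusted p = 0.00477, but 0.18, adjusted p = 0.157 after median centring), as was the deacetylase Sirt1 (0.49, adjusted p = 0.0174), and Lpin1, a phosphatidate phosphatase and coactivator, was lower (-0.30, adjusted p = 0.0135), all in limma. The Sirt1 call was lost without siMyT1 replicate 3 or siLSD1 replicate 3, and that of Lpin1 without siLSD1 replicate 1 or 3 (adjusted p up to 0.0811).

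Among 10 measured PPAR target genes outside the pathway, 1, 1 and 2 passed in siMyT1 against siControl, siLSD1 against siControl and siMyT1 against siLSD1, all higher, beside 5.12%, 3.97% and 13.2% of all genes higher. Acot2, a mitochondrial acyl-CoA thioesterase, passed in siMyT1 against siControl (log2 difference 0.32, SE 0.07, limma adjusted p = 0.0172), and its call was lost without siMyT1 replicate 3 or siControl replicate 1 or 3 (adjusted p up to 0.0834). Only Plin2 passed in siLSD1 against siControl, 1 of 10, and it codes for a lipid droplet coat protein (log2 difference 0.31, limma adjusted p = 0.0142). It lost its call without siLSD1 replicate 1 or siControl replicate 1 (adjusted p up to 0.0677). In siMyT1 against siLSD1 2 passed, Acot2 (0.49) and G0s2, an inhibitor of triglyceride breakdown (0.95, limma adjusted p = 0.00717).

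Markers of cell identity moved between the same groups. The 9 measured neuroblastoma markers summed to 182 to 194 units in siMyT1, 248 to 276 in siLSD1 and 230 to 246 in siControl, with 4 lower in siMyT1 and 3 higher and 1 lower in siLSD1, each against siControl, and 6 lower in siMyT1 against siLSD1, beside 2.29% of all genes lower in siMyT1, 3.97% higher and 4.93% lower in siLSD1, and 5.58% lower between the knockdowns. The 6 fibroblast markers summed to 2.15 to 2.75 units in siMyT1, 1.53 to 1.66 in siLSD1 and 1.47 to 1.98 in siControl, and of these Dcn alone passed, higher in siMyT1 than in either other group. The 3 adipocyte markers summed to 0.200 to 0.366 units in siMyT1, 0.0931 to 0.197 in siLSD1 and 0.0395 to 0.257 in siControl, with 1 called higher in siMyT1 against siLSD1, Adipoq, at 0.0930 ± 0.043 units in siMyT1 and 0.0103 ± 0.0044 in siLSD1, both below the pseudocount. Hepatocyte, striated muscle and macrophage markers passed in none of the comparisons in limma, with 1 muscle marker at an unadjusted p under 0.05 in siMyT1 against siControl. The part of these shifts, and of the actin and Gapdh ratios, in the differences of the oxidation genes was not tested.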

How the data were processed

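Gene expression was measured on 1-colour arrays with biotin-labelled RNA from Neuro2a cells, per the labels. The deposited values are linear intensities, 1 per probe set and array. How probe sets were summarised and scaled is not stated. Precision is limited by having 3 arrays a group. Nothing in the labels says that replicates were separate cultures: the p-values reflect variation among the deposited samples, possibly technical.

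Probe sets were named from the array platform's annotation. 34945 had 1 symbol and 932 had several and were not named; symbols were checked against RefSeq GRCm38.p6. A pseudocount of 32 on a scale with a trimmed mean of 500 (2% trimmed at each end) equals 0.196 deposited units. Log2 values were fitted with limma 3.58.1 in R 4.3.3, as group means over all 9 arrays with an intensity trend, and p-values were two-sided and adjusted over 18193 genes. The fit was tested on simulated data. With 3 arrays against 3, an exact permutation test could not go below p = 0.1, so every p comes from limma.

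The members and lists were chosen with earlier results of these data known. Lists were set by role. Named genes are the 10 members, the siRNA targets and up to 4 genes per list and comparison with the smallest adjusted p under 0.05. Genes with no single-symbol probe set are not reported here. Alternatives changed the normalization, pseudocount, filter, choice of probe sets, arrays in the fit, variance model, array weights and replicate block. Promoters were searched on both strands.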

Additional observations from a re-analysis of the deposited data

How the results depend on the processing

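The counts of genes past the threshold moved with settings as follows. For the 10 enzymes in siMyT1 against siControl (3 as reported), the fit without an intensity trend gave 1, and leaving out 1 array gave 1 to 3. In siLSD1 against siControl (1 as reported), quantile normalization, the smaller pseudocount and leaving out dim genes each gave 2, array weights gave 4, the mean of all probe sets gave 0, and leaving out 1 array gave 1 to 2 (2 without siLSD1 replicate 1 or 2). In siMyT1 against siLSD1 (5 as reported) leaving out 1 array gave 4 to 5. For the other mitochondrial oxidation genes, leaving out 1 array gave 3 to 6 in siMyT1 against siControl (5 as reported), 1 to 2 in siLSD1 against siControl (2 as reported, 1 without siControl replicate 1) and 8 to 11 in siMyT1 against siLSD1 (10 as reported), and quantile normalization gave 4 in siLSD1 against siControl. Without siControl replicate 3, 1 of the 10 enzymes was called in siMyT1; without siMyT1 replicate 2 or siControl replicate 1, 3 of the other oxidation genes were. Fabp3, a fatty acid binding protein, was called higher in siMyT1 than in siControl (0.42, limma adjusted p = 0.0445) and siLSD1 (0.61, limma adjusted p = 0.00267). It turned to -0.11 (siMyT1 against siControl) and -0.15 (siMyT1 against siLSD1) when all its probe sets were averaged. Its call against siControl was also lost with only the groups compared (0.0801), with the replicate block (0.0886), and without siMyT1 replicate 2 or 3 or any 1 siControl array (adjusted p up to 0.133). Among genes named outside the 10, the fit without an intensity trend also ended the siMyT1 against siControl calls of Acsl4, Hsd17b4, Pecr, Nrip1, Acot2, Prkab2 and Timm23 (adjusted p 0.0618 to 0.111) and that of Plin2 in siLSD1 (0.0775). Between the knockdowns the same fit ended the calls of Sirt1 (0.0632) and Prkag1 (0.103). Median centring ended those of Acsl4, Timm23 and Acot2 (0.0534 to 0.102) in siMyT1 against siControl. Fitting only the groups compared ended those of Ehhadh (0.0754), Pecr (0.0677) and Nrip1 (0.0758), averaging probe sets that of Pecr (0.221), and the smaller pseudocount that of Ehhadh (0.0576). The cause of these shifts was not tested. Over all genes, 1348 calls in siMyT1 against siControl became 2463 after quantile normalization, 862 with all probe sets averaged, 765 without a trend and 650 to 1450 with 1 array left out, and 1619 in siLSD1 against siControl became 2805, 1079, 2966 with array weights and 965 to 1318 with 1 array left out. Of 357 values of enzymes not called, 14 changed sign without being called. Deviations of arrays with the same replicate number correlated between -0.039 and 0.043, and 3 of 9 arrays correlated best with their own number. Pairing by number was thus not detected, but these correlations cannot exclude that samples were prepared in numbered sets. With the replicate block, 3, 1 and 5 of the enzymes and 5, 2 and 9 of the other oxidation genes were called in the 3 comparisons, and 935 genes in all in siMyT1 against siControl; the block ended the siMyT1 calls of Ehhadh (adjusted p = 0.0517) and Nrip1 (0.0868).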

Other observations

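Of 16 measured genes of fatty acid uptake and activation, 3 were higher in siMyT1 than in siControl, beside 5.12% of all genes, and 1 was higher in siLSD1 than in siControl, beside 3.97%. Between siMyT1 and siLSD1 2 were higher, beside 13.2%, and 3 lower, beside 5.58%. Fabp3 is counted as higher in both comparisons of siMyT1, and its sign reversed when its probe sets were averaged. Acsl4, which activates arachidonate and other polyunsaturated fatty acids, measured 14.99, 16.96 and 17.04 units in siMyT1, 22.2, 24.8 and 24.3 in siLSD1, and 12.6, 14.5 and 11.9 in siControl. The 3 groups did not overlap, with siLSD1 highest (log2 difference from siControl 0.86, SE 0.08, limma adjusted p = 2.22e-05). The smaller rise in siMyT1 (0.33, adjusted p = 0.0278) was lost without siMyT1 replicate 2 or 3 or siControl replicate 1 or 3 (adjusted p up to 0.116) in limma. Dbi, the acyl-CoA binding protein, rose in siMyT1 by 0.48 (limma adjusted p = 0.00189), and Acss2, an acetyl-CoA synthetase, was lower in siMyT1 than in siLSD1 by a log2 difference of -0.43 (limma adjusted p = 0.00297). Averaging all probe sets of a gene ended both calls, at 0.32 (adjusted p = 0.0797) for Dbi and -0.29 (adjusted p = 0.0824) for Acss2.

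Malonyl-CoA, the inhibitor of CPT1, is lowered by the kinase AMPK, and 10 genes of its control were measured. In siMyT1 against siControl 1 was higher and 1 lower, both AMPK beta subunits, beside 5.12% of all genes higher and 2.29% lower. Prkab1 measured 5.99, 5.51 and 7.48 units in siMyT1, 9.59, 8.23 and 9.60 in siLSD1, and 9.85, 10.6 and 10.1 in siControl, with all siMyT1 arrays below all others (siMyT1 against siControl -0.68, SE 0.10, limma adjusted p = 0.00132). Prkab2 measured 6.03 ± 0.41 units in siMyT1, 5.66 ± 0.50 in siLSD1 and 4.67 ± 0.067 in siControl (siMyT1 against siControl 0.35, SE 0.08, limma adjusted p = 0.0196). The Prkab2 call was lost without siMyT1 replicate 2 or 3 or siControl replicate 1 or 3 (adjusted p up to 0.0809). In siLSD1 against siControl 0 of the 10 passed in limma, with 3 at an unadjusted p under 0.05. In siMyT1 against siLSD1 1 was lower, Prkab1 (-0.53, limma adjusted p = 0.00255), beside 5.58% of all genes lower. The 1 higher gene was Prkag1 (0.33, limma adjusted p = 0.0437), beside 13.2% higher. The Prkab1 call stayed under all 17 alternatives. That of Prkag1 stayed under 7 of 17 and was lost, among others, after median centring (0.20, limma adjusted p = 0.225).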
